A study of Mus musculus with 8 samples.

Results

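The 9 genes described here encode the core subunits of cohesin. They were chosen by gene symbol and are 9 of the 23983 genes in the expression table. Smc1b, Rec8, Rad21l and Stag3 form the meiotic set of 4, and Smc1a, Smc3, Rad21, Stag1 and Stag2 form the general set of 5. All 9 were found in the table. The study looked for genes and regions that become active in haploid male germ cells, and for that purpose RNA was prepared from pieces of whole testis of wild-type C57BL/6J mice 12, 16 and 24 days after birth (d12, d16, d24) and at the adult stage. Each stage is 1 strand-specific RNA-seq library, and no treatment, transgene or further genotype separates the 4 groups. The number of animals behind a library and the age of the adult animals are not given in the sources used here. In whole tissue, fewer cells of a type and less RNA per cell cannot be told apart.

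Cohesin is a ring that holds sister chromatids together. SMC1 and SMC3 subunits form the long arms, a kleisin subunit closes the ring, and a STAG protein binds the kleisin. Dividing somatic cells and spermatogonia use SMC1A, SMC3, RAD21 and STAG1 or STAG2. Cells in meiosis also make SMC1B, the kleisins REC8 and RAD21L and the adaptor STAG3, and there is no meiotic form of SMC3. Meiotic cohesin organises the chromosome axis on which homologues pair, and REC8 at centromeres is protected until the second division. The first wave of spermatogenesis after birth is nearly synchronous, so a testis at d12 holds spermatogonia and early meiotic cells, while round and elongating spermatids appear later.

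Values are FPKM as deposited, fragments per kilobase of transcript and per 1000000 fragments of a library size. This size was not each library's own mapped total. In adult testis 1 fragment on a transcript of 1 kb was worth 0.112 FPKM, more than division by that library's fragments on genes would give. Where 4 values are listed without their stages, they are those of d12, d16, d24 and adult testis in this order. An FPKM value is set per transcript length, so levels of different genes can be compared within a library. For genes whose length allowed it, the number of sequenced fragments was recovered from the values, and the ranges in parentheses are exact 95% intervals that cover counting error alone. With 1 library per stage there is no spread between animals and no test of a stage. The 4 libraries held 9321000, 9913000, 24966000 and 12732000 fragments on genes. FPKM values summed over all genes to 283579.7 at d12 and 659202 in adult testis, so the value given to a gene between stages depends on how libraries are scaled, whereas the ratio of any pair of genes inside a library does not. Stretches of 50 bases, the read length, that also occur in another gene made up at most 1.56% of a subunit's longest transcript, the highest being Smc3, and no stretch was shared between subunits.

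The levels of germ cell markers differed between the libraries. The 6 markers of spermatogonia summed to 205, 122, 55.0 and 38.1 FPKM, mostly from Stra8 and Dmrt1. Of the 6, 5 were at least 2-fold lower in adult testis than at d12, and the other, Gfra1, had its highest value of the 4 libraries in adult testis, at 2.41 FPKM. The 6 early meiotic markers summed to 609.7, 1224, 836 and 785 FPKM, mostly from Sycp3 and Hormad1, and did not move together: over the whole span 1 of them, Spo11, was at least 2-fold higher and 2, Dmc1 and Prdm9, were lower. Sums were 49.1, 827, 3616 and 4354 FPKM for the 6 pachytene markers and 3.48, 14.8, 468 and 1121 for the 6 round spermatid markers. For the 6 elongating spermatid markers they were 13.2, 4.45, 2363 and 26392. Of these last 6, 4 were at least 2-fold lower at d16 than at d12, at few fragments, such as 17 and 6 for Prm1. The source of this low signal at d12 was not tested. The 6 Sertoli cell markers summed to 181, 135, 83.0 and 63.0 FPKM, and the 6 Leydig cell markers to 132, 82.4, 153 and 581. These changes in cell makeup run beside every difference between stages given here, and their part in them was not tested.

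Promoter windows of 300 bases were read from RefSeq for GRCm38.p6, and 7 of the 9 subunits had one. The letters TTCCCGC, a core of sites known to bind E2F factors, occurred on either strand in 4.60% of 32851 windows and in those of 4 of the 7 subunits. They are Smc1b and Stag3 of the meiotic set and Stag1 and Smc1a of the general set, so the letters did not follow the division into sets. A stretch from 100 bases before to 20 bases after the annotated start is shown for the 3 subunits whose match lay in it. The stretches run 5′ to 3′ on the gene's strand, with the match in capitals. They lie at chr15:85131938-85132057 on the minus strand for Smc1b, chr5:138280409-138280528 on the plus strand for Stag3 and chr9:100643348-100643467 on the plus strand for Stag1.
Smc1b: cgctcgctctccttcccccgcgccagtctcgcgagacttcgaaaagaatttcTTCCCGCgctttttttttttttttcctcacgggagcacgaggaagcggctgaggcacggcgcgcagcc
Stag3: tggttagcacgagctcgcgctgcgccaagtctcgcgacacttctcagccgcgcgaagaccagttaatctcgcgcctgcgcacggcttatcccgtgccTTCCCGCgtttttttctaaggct
Stag1: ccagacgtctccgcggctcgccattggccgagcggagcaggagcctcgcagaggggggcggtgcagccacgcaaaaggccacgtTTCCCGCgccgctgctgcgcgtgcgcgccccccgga
The match began 48 bases before the start in Smc1b, 3 bases before it in Stag3 and 16 bases before it in Stag1. In Smc1a it lay 39 to 45 bases after the start, past the end of such a stretch. It overlapped no other motif searched. The windows of Stag3 and Stag1 lie inside the annotated span of the gene and not at its outer end. For comparison, the window of Rec8 held none of the motifs searched. The stretch shown for it (chr14:55618066-55618185, plus strand) also lies inside the annotated span of the gene.
Rec8: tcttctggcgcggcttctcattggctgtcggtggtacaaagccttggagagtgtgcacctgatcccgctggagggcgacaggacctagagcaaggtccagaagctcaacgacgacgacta
Of the other motifs searched on both strands, the E-box CACGTG was in 7.15% of all windows and in that of Stag3 alone among the 7 subunits, CNCCTCAG, a motif described for the meiotic inducer STRA8, in 7.94% and in none of the 7, and the cAMP response element TGACGTCA in 1.79% and in none of the 7. A match is a description of the letters and not a binding site.

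Smc1b, the meiotic SMC1 arm, had the highest level of the 9 subunits at every stage. The gene lies on the minus strand of chromosome 15 from 85064689 to 85131957 (GRCm38). It had 174, 216, 250.3 and 338 FPKM, from 8828, 10904, 22216 and 12179 fragments. The deposited values thus stood higher at each later stage, with 1.94 times the d12 value in adult testis (1.89 to 1.99). This direction depends on the scaling: with each library set to the same FPKM sum, Smc1b was 0.26 lower on the log2 scale in adult testis than at d12, and with upper quartile scaling it was 0.29 higher. At d12, 0.796% of the genes in the table had a higher value than Smc1b, and in adult testis 1.37% did.

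Smc1a, the general counterpart (X chromosome, plus strand, 152016428 to 152061973), was lower at each later stage. It had 63.1, 44.8, 17.9 and 14.3 FPKM, from 3136, 2224, 1557 and 505 fragments. The d24 value was 2.51-fold below the d16 value, and the adult value was 4.42-fold below the d12 value. This order held under each of the 4 scalings used. The log2 changes from d12 to adult testis were -2.14 as deposited and -2.13 with median ratio scaling. They were -2.79 with upper quartile scaling and -3.36 with equal FPKM sums. Median ratio scaling shifted the median over all genes by 0.00 to 0.01 on the log2 scale. It therefore nearly repeats the deposited scaling, here and for the other subunits, and is not a separate check.

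Within a library, the Smc1b to Smc1a ratio was 2.77 (2.66 to 2.88), 4.82 (4.60 to 5.04), 14.0 (13.3 to 14.8) and 23.7 (21.7 to 26.0). No neighbouring intervals overlapped. The ratio was 8.57 times as high in adult testis as at d12 (7.76 to 9.47), and the step from d16 to d24 alone was 2.91-fold (2.72 to 3.12). Smc1b made up 73.4% of the summed SMC1 FPKM at d12 and 96.0% in adult testis, so most SMC1 transcripts per length were of the meiotic form already in the youngest library.

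**Figure D1:**
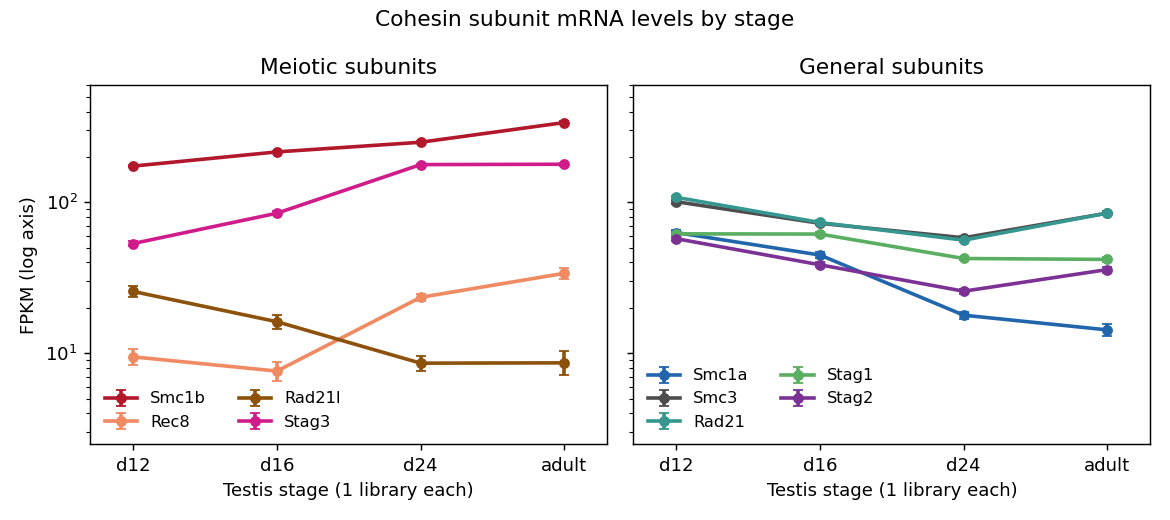
FPKM (log axis) of the 4 meiotic subunits (left) and the 5 general subunits (right) in the libraries of d12, d16, d24 and adult testis, 1 library per stage. Bars are exact 95% counting intervals and lines only join the stages. Smc1b is highest at each stage, Rec8 and Rad21l change places between d16 and d24, and Smc3 and Rad21 lie on top of each other with Smc1a below both at every stage.

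Smc3, the arm that every cohesin ring shares, lies on the plus strand of chromosome 19 (53600396 to 53645831). Its level was 101, 72.7, 58.3 and 84.9 FPKM, from 6122, 4411, 6215 and 3671 fragments. In adult testis it stood at 1.46 times (1.40 to 1.52) its d24 level and 0.842 times (0.808 to 0.877) its d12 level, where the log2 difference from d12 was -0.25 as deposited, -0.91 with the upper quartile and -1.46 with equal FPKM sums. Rad21, the general kleisin on the minus strand of chromosome 15 (51962604 to 51993538), had 108, 73.6, 56.2 and 85.0 FPKM, from 4859, 3315, 4448 and 2734 fragments. Both were lowest at d24 under all 4 scalings, although with equal FPKM sums the adult values were higher by 0.06 and 0.12 only, on the log2 scale. The Rad21 to Smc3 ratio was 1.07 (1.03 to 1.11), 1.01 (0.966 to 1.06), 0.963 (0.926 to 1.00) and 1.00 (0.953 to 1.05), and the changes of this ratio between neighbouring stages had intervals that reached 1.

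The likeness of Smc3 and Rad21 was also seen against the rest of the table. Each gene's FPKM values were turned into the share of each stage in their sum, and profiles were compared by the percentage of that sum that would have to move between stages to make them equal. By this measure Smc3 and Rad21 differed by 1.56%. Among 9437 genes whose mean was 5 FPKM or more, Smc3 was number 3 in nearness to Rad21, and Rad21 was number 8 in nearness to Smc3. With equal FPKM sums these places were 5 and 11. For the other 7 subunits, the nearest fellow subunit was at place 109 or farther, the first of them being Rad21 for Stag2.

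The kleisins showed the sharpest exchange inside the meiotic set. Rec8, which lies on the plus strand of chromosome 14 (55618002 to 55625395), is the kleisin that holds sister chromatids until the second meiotic division. It had 9.48, 7.63, 23.5 and 33.9 FPKM, from 244, 196, 1060 and 621 fragments, with the early pair of libraries well below the late pair. From d16 to d24 its level was multiplied by 3.08 (2.64 to 3.60), and from d12 to adult testis by 3.57 (3.08 to 4.16). Rec8 was higher in adult testis than at d12 under each of the 4 scalings, by 0.62 to 1.84 on the log2 scale.

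Rad21l, a kleisin known from early meiotic prophase where homologues pair, lies on the minus strand of chromosome 2 (151644366 to 151670622). It had 25.7, 16.2, 8.61 and 8.65 FPKM, from 534, 336, 314 and 128 fragments. The deposited values at d24 and in adult testis could not be told apart by counting error, with a ratio of 1.00 (0.811 to 1.24). The log2 change in this step was -0.47 with equal FPKM sums and -0.23 with the upper quartile. From d12 to adult testis the level was 2.97-fold lower, and it was lower under all 4 scalings. The curated RefSeq transcript of Rad21l has 0 UTR bases, against 279 to 809 in those of Rec8 and 1697 in that of Rad21, so the FPKM of Rad21l is per coding length and its level beside the other kleisins depends on that gene model, while changes between stages do not.

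At d12 there was 2.71 times as much Rad21l as Rec8 (2.33 to 3.17) in FPKM, and at d16 2.12 times as much (1.78 to 2.55). At d24 the Rad21l to Rec8 ratio was 0.367 (0.322 to 0.417) and in adult testis 0.255 (0.209 to 0.309), so that the order of the meiotic kleisins was reversed between d16 and d24. Over the whole span the ratio was 10.6-fold lower (8.27 to 13.7), of which 5.79-fold (4.63 to 7.23) lay in the step from d16 to d24. By point value this was the largest change in any of the 5 ratios of a subunit to others of its role that were set for this comparison. Counting error does not settle the ranking. Over the whole span the interval overlapped that of the Smc1b to Smc1a ratio (7.76 to 9.47). From d16 to d24 it overlapped that of the Rec8 to Rad21 ratio (3.43 to 4.75).

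Against Rad21, Rec8 stood at 0.0881 (0.0771 to 0.10), 0.104 (0.0893 to 0.120), 0.418 (0.391 to 0.447) and 0.398 (0.365 to 0.435). The Rec8 to Rad21 ratio was 4.03 times as high at d24 as at d16 (3.43 to 4.75), while its intervals overlapped between d12 and d16 and between d24 and adult testis. The Rad21l to Rad21 ratio was 0.239 (0.218 to 0.261), 0.220 (0.196 to 0.246), 0.153 (0.136 to 0.172) and 0.102 (0.0845 to 0.121). Rad21 held the largest share of kleisin FPKM in every library, with 75.4%, 75.5%, 63.6% and 66.7%. The summed kleisins moved with Smc3, at 1.42 (1.37 to 1.47), 1.34 (1.28 to 1.40), 1.51 (1.46 to 1.57) and 1.5 (1.43 to 1.58) times its level.

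Stag3, the meiotic STAG subunit, lies on the plus strand of chromosome 5 (138272514 to 138312397). Its level was 53.4, 84.8, 178 and 179 FPKM, from 2829, 4481, 16578 and 6743 fragments. The d16 level was 1.59 times that of d12 (1.51 to 1.66), the d24 level was 2.11 times that of d16 (2.04 to 2.18), and the d24 and adult values were level at a ratio of 1.00 (0.974 to 1.03). Under equal FPKM sums the d24 value was still higher than the d16 value, by 0.46 on the log2 scale, and the adult value was 0.48 lower than the d24 value.

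Stag1 and Stag2, the general STAG subunits, started near the level of Stag3. Stag1, on the plus strand of chromosome 9 (100597709 to 100958544), had 61.9, 61.7, 42.5 and 41.9 FPKM, from 4785, 4764, 5774 and 2310 fragments. As deposited, its intervals overlapped within the early pair of stages and within the late pair, and its d24 level was 0.690 times that of d16 (0.664 to 0.717). With equal FPKM sums the log2 changes within the early and the late pair were -0.12 and -0.50, and with the upper quartile -0.14 and -0.26. The annotated gene Gm3081 lies inside Stag1 on the same strand, so some fragments could belong to either. Stag2 (X chromosome, plus strand, 42149297 to 42277186) had 57.5, 38.6, 25.8 and 35.9 FPKM, from 4234, 2839, 3334 and 1882 fragments. Stag2 was therefore lower at d16 than at d12, where Stag1 was not, and higher in adult testis than at d24 as deposited (1.39 times, 1.31 to 1.47), a difference that came to 0.00 on the log2 scale with equal FPKM sums. The Stag1 to Stag2 ratio was 1.08 (1.03 to 1.12), 1.6 (1.52 to 1.67), 1.65 (1.58 to 1.72) and 1.17 (1.1 to 1.24), and so was highest at d16 and d24, whose intervals overlapped.

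The ratio of Stag3 to Stag1 and Stag2 together was 0.448 (0.429 to 0.467), 0.845 (0.814 to 0.877), 2.61 (2.54 to 2.68) and 2.30 (2.21 to 2.39). It passed 1 between d16 and d24 and was 5.13 times as high in adult testis as at d12 (4.85 to 5.44). The change was 4.94-fold against Stag1 alone and 5.36-fold against Stag2 alone. Stag3 held 30.9%, 45.8%, 72.3% and 69.7% of the STAG FPKM. Among the 3 roles that have a meiotic form, the meiotic share was thus highest for SMC1 and lowest for the kleisins in adult testis, where Rec8 and Rad21l held 26.6% and 6.78%.

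**Figure D2:**
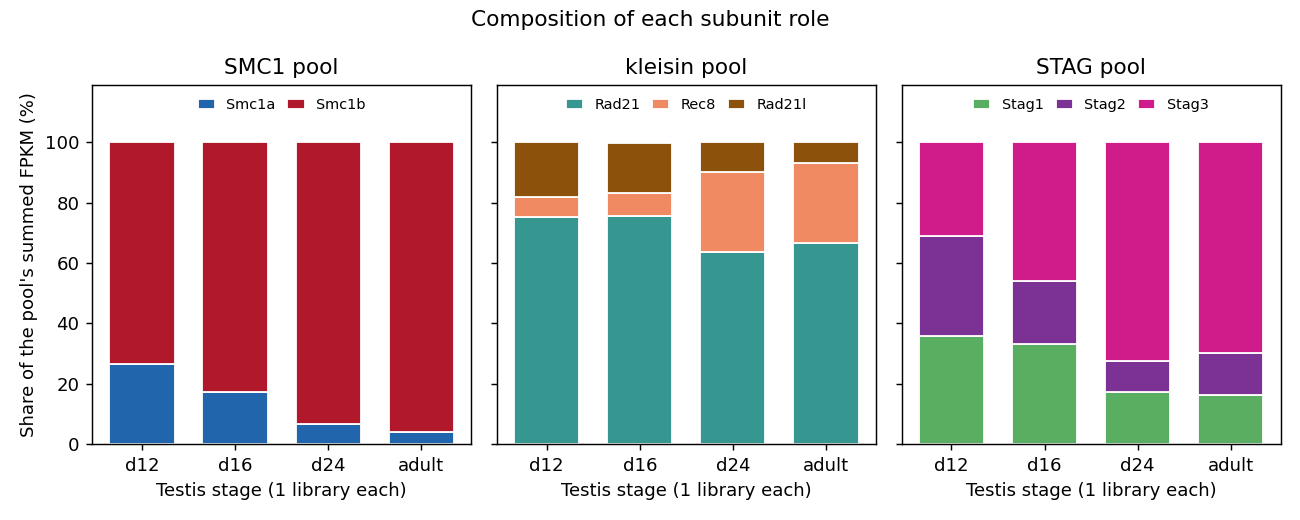
Share of each gene in the summed FPKM of its role (percent) in each library, for SMC1 (left), kleisin (middle) and STAG (right) subunits. Smc1b takes 73.4% to 96.0% of SMC1 and Stag3 30.9% to 72.3% of STAG, while Rad21 keeps 63.6% to 75.5% of the kleisins and Rec8 widens from 6.64% at d12 to 26.6% in adult testis.

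**Figure D3:**
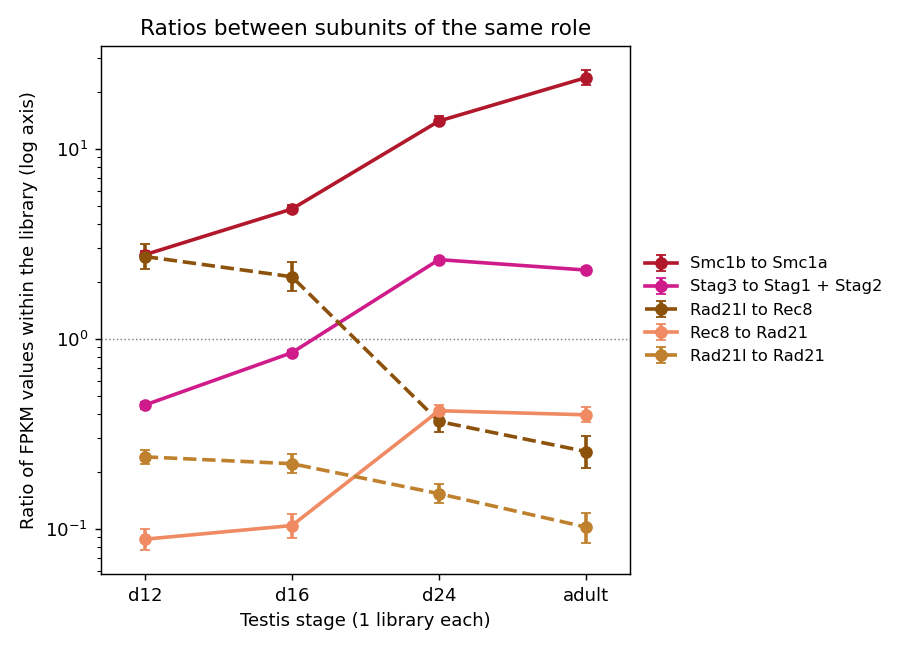
Ratios of FPKM values (log axis) within each library for the 5 comparisons of subunits in the same role, with exact 95% counting intervals. The dotted line marks equal levels. The Smc1b to Smc1a ratio goes from 2.77 to 23.7, and the Rad21l to Rec8 and Stag3 to Stag1 + Stag2 ratios cross the line in opposite directions between d16 and d24.

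The 4 meiotic subunits summed to 263, 325, 461 and 559.5 FPKM, and the 5 general subunits to 391, 291, 201 and 262. The meiotic set thus held 40.2%, 52.7%, 69.7% and 68.1% of the FPKM of all 9 subunits. Smc1b was the largest part of this share. Without Smc1b, a setting chosen after the values were seen, the share was 18.5%, 27.1%, 51.2% and 45.8%. The summed SMC1 subunits stood at 2.36 (2.29 to 2.43), 3.58 (3.46 to 3.71), 4.60 (4.47 to 4.73) and 4.15 (4.00 to 4.31) times the level of their partner Smc3. For the summed STAG subunits these multiples of Smc3 were 1.71 (1.66 to 1.77), 2.54 (2.46 to 2.63), 4.23 (4.12 to 4.35) and 3.03 (2.91 to 3.14). Transcripts of SMC1 and STAG subunits were thus in larger excess over those of Smc3 at each stage up to d24, whereas the summed kleisins stayed between 1.34 and 1.51 times Smc3.

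The order of the 9 subunits changed accordingly. At d12 it ran from Smc1b through Rad21, Smc3, Smc1a, Stag1, Stag2, Stag3 and Rad21l to Rec8, and only Smc1a and Stag1 could not be told apart by their intervals. In adult testis it ran from Smc1b through Stag3, Rad21, Smc3, Stag1, Stag2, Rec8 and Smc1a to Rad21l, and the intervals of Rad21 and Smc3 and those of Stag2 and Rec8 overlapped. Stag3 was number 7 at d12 and number 2 from d16 on. Smc1a was number 4 at d12 and number 8 at d24 and in adult testis. Rec8 was the lowest subunit at d12 and d16, and Rad21l at d24 and in adult testis.

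To set these values beside the table as a whole, a gene was counted when it differed by at least 2-fold between stages on the log2 scale of FPKM + 0.1, among the 13901 genes whose mean over the libraries was 1 FPKM or more, which include all 9 subunits. From d12 to d16, none of the 9 subunits passed in either direction, where 12.6% of all genes were higher and 3.67% lower. From d16 to d24, 2 of the 4 meiotic subunits, Rec8 and Stag3, were higher, beside 27.5% of all genes, and 1 of the 5 general subunits, Smc1a, was lower, beside 8.45%. From d24 to adult testis none passed, beside 11.4% higher and 2.20% lower among all genes. From d12 to adult testis, a comparison added after the values were seen, 2 meiotic subunits were higher (Rec8 and Stag3) and 1 lower (Rad21l), and Smc1a was lower among the general subunits, beside 35.7% and 23.1% of all genes. With so few members, these counts do not set the subunits apart from the table. They also depend on the scaling. From d16 to d24, Stag3 was higher by 0.79 on the log2 scale with the upper quartile and by 0.46 with equal FPKM sums, so that Rec8 alone passed 2-fold upwards, while Rad21l passed 2-fold downwards under both, and with equal sums 4 general subunits were lower. Over the whole span, equal sums gave 0 meiotic subunits higher and 5 general subunits lower, and the upper quartile gave 2 and 3.

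The median log2 change of the 4 meiotic subunits was 0.00 from d12 to d16, 0.64 from d16 to d24, 0.22 from d24 to adult testis and 1.35 from d12 to adult testis. That of the 5 general subunits was -0.49, -0.54, 0.47 and -0.56. Over all genes the medians were 0.00, 0.13, -0.02 and 0.20. The scaling shifts all of these together: with equal FPKM sums the median over all genes was lower by 0.11, 0.61, 0.48 and 1.21 on the log2 scale, and with upper quartile scaling by 0.13, 0.28, 0.24 and 0.65. From d16 to d24, 19.4% of all genes were then higher and 30.7% lower with equal sums, and 23.3% and 17.0% with the upper quartile. From d12 to adult testis these shares were 23.2% and 50.1% with equal sums and 27.8% and 37.9% with the upper quartile, and from d24 to adult testis 6.73% and 10.9% with equal sums. Relative to the median of all genes in the deposited scale, Smc1b was 0.75 higher in adult testis than at d12, Rec8 1.63 higher and Stag3 1.54 higher, while Rad21l had a relative change of -1.76 and Smc1a of -2.34.

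**Figure D4:**
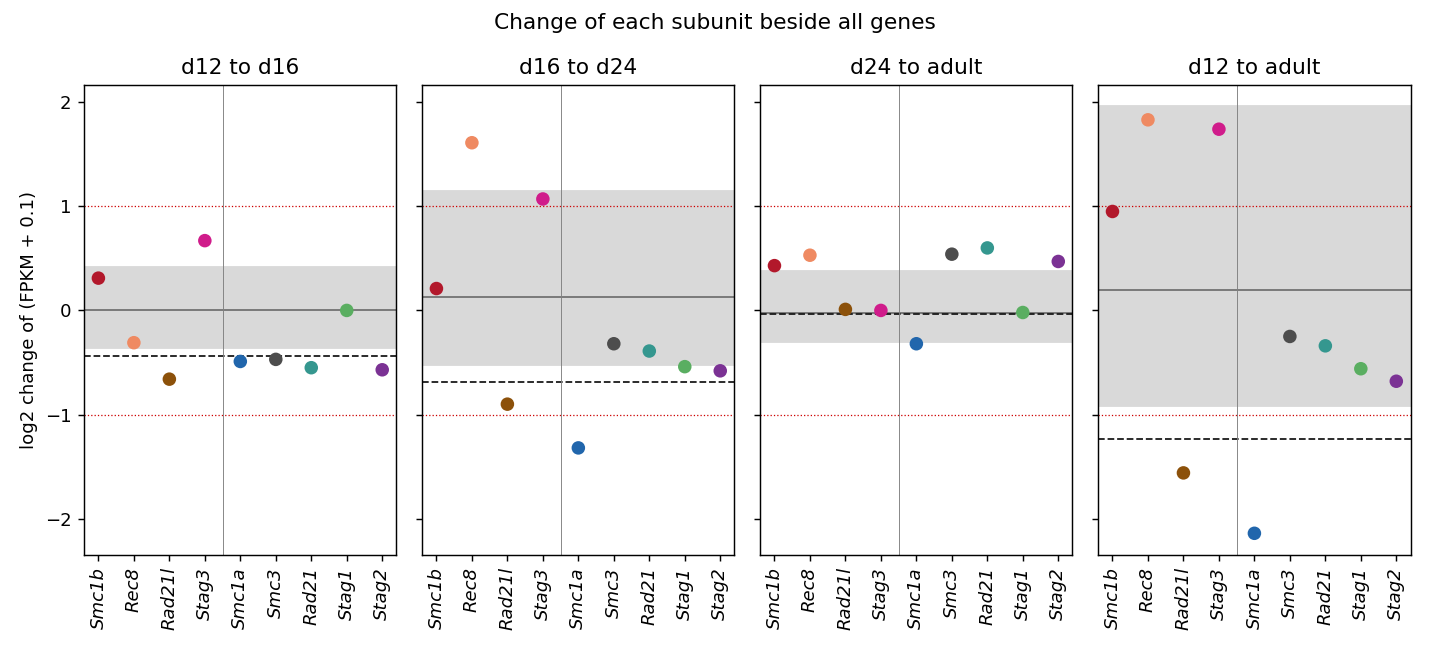
Log2 change of FPKM + 0.1 of each subunit between the stages named above each panel, meiotic subunits left and general subunits right of the thin vertical line. The grey band is the interquartile range of 13901 genes with their median as a solid line, the dashed line is the median of X-linked genes, and dotted lines mark 2-fold. Rec8, Stag3 and Smc1a pass 2-fold from d16 to d24.

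Smc1a and Stag2 are the X-linked members, and the sex chromosomes are known to be silenced in pachytene spermatocytes. Of the 13901 genes, 613 were X-linked and 13184 autosomal. The median log2 change of X-linked genes was -0.44 from d12 to d16, -0.69 from d16 to d24 and -0.03 from d24 to adult testis, against 0.00, 0.16 and -0.02 for autosomal genes. Smc1a had -0.49, -1.32 and -0.32 in these steps, and its d16 to d24 value lay among the 30.2% of X-linked genes that were at least 2-fold lower, against 7.40% of autosomal genes. Stag2 had -0.57, -0.58 and 0.47, and so was above the X-linked median in the last 2 steps. Over the whole span the X-linked median was -1.23 and the autosomal median 0.25, and 55.8% of X-linked and 21.6% of autosomal genes were at least 2-fold lower. Smc1a, at -2.14, was among these X-linked genes, and Stag2, at -0.68, was not. By profile Stag2 was nearest, among the subunits, to the autosomal Rad21 (4.70% difference), and Smc1a to Rad21l (6.24%).

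Factors that load, release, acetylate, protect and cleave cohesin formed a list of 16 regulators, all found in the table. From d12 to d16, 1 of the 16 was at least 2-fold higher and 1 lower, from d16 to d24 3 were higher and 2 lower, and from d24 to adult testis none passed in either direction. From d12 to adult testis 6 were higher and 4 lower. Their median log2 changes were 0.02, -0.12, -0.13 and -0.30 in the same order. Among all genes, 12.6% were higher and 3.67% lower in the first step, where 6.25% of the list was higher and 6.25% lower. From d16 to d24, 18.8% of the list was higher and 12.5% lower, beside 27.5% and 8.45% of all genes, and in the last step the shares of all genes were 11.4% and 2.20%. Over the whole span 37.5% of the list was higher, beside 35.7% of all genes higher and 23.1% lower. The balance of the list turned round with the scaling, as did that of all genes. Equal FPKM sums gave 0 higher and 7 lower from d16 to d24, beside 19.4% and 30.7% of all genes. From d12 to adult testis they gave 1 higher and 9 lower, beside 23.2% and 50.1%. The upper quartile gave 3 higher and 8 lower over the whole span, beside 27.8% and 37.9%.

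Nipbl, the loader that places cohesin on DNA, had 36.1, 55.2, 145 and 165 FPKM, the last 4.56 times the d12 value (4.42 to 4.72), a log2 difference of 2.19 that was 1.53 with the upper quartile and 0.97 with equal FPKM sums. Its partner Mau2 stayed between 8.69 and 10.7 FPKM, so the pair did not move together. Wapl (listed as Wapal), which opens the ring and releases cohesin, had 79.4, 88.3, 106 and 117 FPKM, and its d12 to adult difference turned negative with both equal sums and the upper quartile. Esco2, an acetyltransferase that locks cohesin on replicated DNA, had 28.7, 23.1, 11.7 and 7.74 FPKM, and 3.71-fold less in adult testis than at d12. The other acetyltransferase Esco1 had 32.3, 29.4, 24.2 and 20.8 FPKM. Hdac8, which removes this acetylation, was low throughout, at 2.87, 1.02, 0.422 and 0.390 FPKM, and no fragments could be recovered for it. Cdca5, or sororin, which counteracts Wapl, had 4.40, 4.49, 8.17 and 9.65 FPKM, 2.19 times the d12 value in adult testis (1.71 to 2.83), and 0.08 below it on the log2 scale with equal sums.

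The protectors of centromeric cohesin differed among themselves. Meikin, a meiosis-specific kinetochore protein listed as 4930404A10Rik, had 1.31, 15.7, 21.0 and 20.6 FPKM, from 24, 282, 661 and 263 fragments. Its level was 12-fold higher at d16 than at d12 (7.89 to 19.0), which made it the only regulator of the 16 past 2-fold upwards in that step, and Rec8, whose protein the shugoshins protect, was not higher in the same step. Sgo2a (listed as Sgol2), the shugoshin needed in meiosis, had 17.5, 28.8, 40.0 and 41.0 FPKM. Sgo1 (listed as Sgol1), the shugoshin of mitosis, had 6.11, 4.03, 2.57 and 1.65 FPKM, 3.71-fold less in adult testis than at d12. Espl1, the protease separase that cuts kleisins, had 5.48, 5.78, 17.2 and 12.8 FPKM, with a d24 value 2.98 times that of d16 (2.70 to 3.29). Its inhibitor securin, Pttg1, had 16, 26.2, 68.6 and 53.1 FPKM, so that both were highest at d24. Ctcf, which stops moving cohesin at loop borders, had 18.7, 17.3, 12.7 and 11.3 FPKM. Its germline paralogue Ctcfl had 5.76, 4.80, 2.18 and 1.53 FPKM, lower in adult testis than at d12 by 3.75-fold, and it was below Ctcf in every library.

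**Figure D5:**
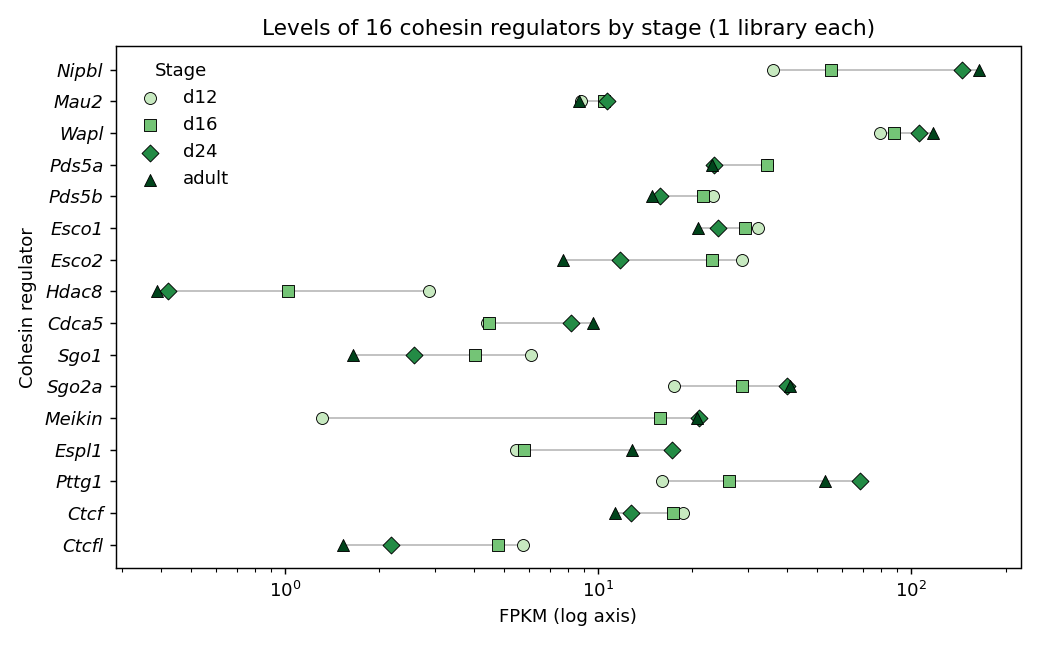
FPKM (log axis) of 16 cohesin regulators, with 1 symbol per stage and a grey line from the lowest to the highest library. Meikin shifts between d12 and d16, Nipbl, Espl1 and Pttg1 between d16 and d24, and Esco2, Hdac8, Sgo1 and Ctcfl have their highest value at d12.

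The other SMC complexes, condensin and SMC5/6, gave 14 further genes for comparison. From d12 to d16 and from d16 to d24, 1 of the 14 was at least 2-fold higher and none lower, beside 12.6% and 27.5% of all genes higher and 3.67% and 8.45% lower, and none passed from d24 to adult testis, beside 11.4% and 2.20%. From d12 to adult testis 4 of the 14 were higher and 1 lower, beside 35.7% and 23.1% of all genes. Of these 4, only Nsmce1 stayed past 2-fold upwards with equal FPKM sums, at 1.18 on the log2 scale. Smc4 had 0.32, Smc5 -0.17 and Nsmce3 (listed as Ndnl2) -0.19. Other genes of the list then passed 2-fold downwards, among them Ncapd3 (-1.71) and Nsmce4a (-2.03). The balance of this list thus depends on the scaling too, as does that of all genes given above. Smc4, an arm of condensin, had 185, 414, 524 and 539 FPKM, above Smc1b in every library. Its level was 2.23 times as high at d16 as at d12 (2.18 to 2.29). Nsmce1, a subunit of SMC5/6, had 33.6, 59.9, 166 and 177 FPKM. Their median log2 changes were 0.14, 0.26 and -0.10 over the 3 steps, against -0.49, -0.54 and 0.47 for the general cohesin subunits, as a description of these libraries.

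Genes with the profile most like that of each meiotic subunit were taken from the 9437 genes over the 4 libraries, with no test. Nearest to Smc1b were Fcf1, a ribosomal RNA processing factor, at a difference of 0.624%, Exoc2, a subunit of the exocyst, at 0.741% and the histone gene Hist2h2aa1 at 0.912%, which has near-identical copies and is uncertain. Rec8 was nearest to the taurine transporter gene Slc6a6 (1.47%), Igsf11 (1.61%) and Fam89b (2.02%). Those nearest to Rad21l were the mitochondrial chaperonin gene Hspe1 (0.616%), Ctsf (0.777%) and Wfdc10 (0.816%). Nearest to Stag3 were the Golgi protein gene Golga4 (0.440%), Rapgef1 (0.783%) and Trim39 (0.810%). With 4 libraries many genes share a profile, and the meiotic subunits themselves were far from each other: Rec8 and Stag3 differed by 11.4%, Smc1b and Stag3 by 12%, and Rec8 and Rad21l by 47.8%.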

How the data were processed

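RNA-seq of whole mouse testis at d12, d16, d24 and the adult stage was analysed, with 1 library per stage. The 4 H3K27Ac ChIP-seq samples are not analysed here. Pairs of 50-base reads were aligned by the authors to mouse genome GRCm38 (mm10) using TopHat2 2.1.0 on bowtie 1.1.2 with RefSeq genes and 1 alignment kept per pair. Cuffdiff of Cufflinks 2.2.1, corrected for multi-reads and bias but not for effective length, gave the deposited FPKM values. The scaling between libraries is not stated in the sources used here. The deposited values were already close to median ratio scaling, which shifted the all-gene medians by 0.00 to 0.01 on the log2 scale.

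The value of 1 fragment was recovered from 15415 genes with 1 curated transcript, for which 91.3% to 92.2% of values of up to 20 fragments lay within 0.05 of a whole number. Other genes were given fragments where curated lengths differed by at most 1.1-fold or where 1 length gave whole numbers. For a transcript of 1 kb, 3 fragments correspond to 0.240, 0.240, 0.137 and 0.336 FPKM in stage order. Intervals are exact Poisson for levels, Clopper-Pearson for ratios and exact conditional for changes of ratios. Changes used log2 of FPKM + 0.1 over genes whose mean was 1 FPKM or more. Python 3.11.15, numpy 2.4.6, pandas 2.3.3, scipy 1.17.1 and matplotlib 3.10.9 were used. The recovery was tested on simulated data and found the value of 1 fragment within 1% in 4 of 4 libraries of 15415 genes.

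Symbols of 22552 genes matched RefSeq directly and 1239 through a synonym. Named genes are the 9 subunits, regulators past 2-fold in a step plus Ctcf and Ctcfl, other SMC genes past 2-fold in a step, and the 3 genes of nearest profile for each meiotic subunit. Mau2, Wapl, Esco1, Cdca5, Esco2, Sgo1, Sgo2a, Smc5, Nsmce3, Ncapd3 and Nsmce4a were named after their values were seen. The members and lists were chosen with earlier results of these data known. Alternatives were 3 other scalings, a 1.5-fold threshold, a pseudocount of 1 FPKM, no filter or a mean of 5 FPKM or more, fragments in place of FPKM, and leaving out Smc3.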

Additional observations from a re-analysis of the deposited data

How the results depend on the processing

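No paired analysis was possible because each stage has 1 library, and no replicate could be left out. Of 330 alternative values for 97 results, 203 kept their value within the tolerance, 127 moved and 0 were labelled as reversed. A change of sign was not enough for that label. Smc1b from d12 to adult testis had 0.95 on the log2 scale as deposited and -0.26 with equal FPKM sums, and was counted as moved. Median ratio scaling nearly repeats the deposited scaling, so its values add little to the number kept. With equal FPKM sums, from d16 to d24 1 meiotic subunit was at least 2-fold higher and 1 lower, 4 general subunits were lower, and 0 regulators were higher and 7 lower. From d24 to adult testis 2 regulators were lower with equal sums. From d12 to adult testis equal sums gave 0 meiotic subunits higher, 5 general subunits lower, and 1 regulator higher and 9 lower. Among all genes, equal sums gave 19.4% higher and 30.7% lower from d16 to d24. They gave 10.9% lower from d24 to adult testis, and 23.2% higher and 50.1% lower over the whole span. With upper quartile scaling, 1 meiotic subunit was higher and 1 lower from d16 to d24, beside 23.3% and 17.0% of all genes. From d12 to adult testis 3 general subunits were lower and 3 regulators higher and 8 lower, beside 27.8% of all genes higher and 37.9% lower. Both scalings lowered later values beside earlier ones here, because the deposited FPKM sums and upper quartiles stood higher at each later stage. The upper quartiles of values above 0 were 13.4, 14.7, 17.9 and 21.2 FPKM in stage order.

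At 1.5-fold, 1 meiotic subunit was higher and 1 lower from d12 to d16 and 1 lower from d16 to d24. At this threshold 1 general subunit was higher from d24 to adult testis and 2 lower from d12 to adult testis. Regulators at 1.5-fold numbered 4 higher and 2 lower from d12 to d16 and 4 lower from d16 to d24. They numbered 2 lower from d24 to adult testis and 7 lower from d12 to adult testis. Among all genes at 1.5-fold, 20.3% were higher and 13.4% lower from d12 to d16, and 36.5% and 22.4% from d16 to d24. From d24 to adult testis these shares were 18.7% and 8.72%, and from d12 to adult testis 42.5% and 32.6%. With a pseudocount of 1 FPKM, 0 regulators were lower from d12 to d16 and 0 from d16 to d24. The shares of all genes were then 0.942% and 4.09%. With a mean of at least 5 FPKM these counts were also 0 and 0, beside 1.87% and 5.79% of all genes. With that mean, 1 regulator was lower from d12 to adult testis, beside 17.3%. These counts differ because the low genes Hdac8, Ctcfl and, in the last case, Sgo1 are damped or left out.

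The meiotic share at d12, d16, d24 and in adult testis was 47.6%, 59.7%, 76.4% and 75.9% without Smc3, 35.0%, 47.6%, 65.3% and 63.9% from fragments not divided by length, and 18.5%, 27.1%, 51.2% and 45.8% without Smc1b, the last chosen after seeing the data. Gene length cancels in the change of a ratio between stages, so fragments gave no separate check of those changes. Over genes whose mean was 5 FPKM or more, the median log2 change of X-linked minus autosomal genes was -1.04 from d16 to d24 and -1.70 from d12 to adult testis, against -0.85 and -1.48. Stage differences rest on 1 library each, and depth limits only the counting error given.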
